A study of Bos taurus with 134 samples.

Results

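Transcriptomes of single bovine oocytes matured in vitro (IVM) or in vivo (IVO) were compared among the oocytes with library numbers 1 to 38. IVM oocytes were the libraries named as in vitro with numbers 1 to 18, IVO oocytes were those named as in vivo with numbers 19 to 38, and libraries without finite values were dropped. This left 16 of 18 IVM oocytes and 19 of 20 IVO oocytes, which made up 35 of the 80 RNA libraries with values in a series of 134 samples.

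A fully grown mammalian oocyte carries a store of transcripts made during its growth, and transcription is largely silent once meiosis resumes. The mRNA of an oocyte at metaphase II (MII) therefore depends on which stored transcripts are kept, polyadenylated or degraded during maturation. In IVM this step takes place in culture medium, in the absence of the follicle and of the hormones that reach it from the blood.

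All oocytes were wild-type and came from 4 Holstein heifers aged 15 to 18 months, which were neither pregnant nor lactating. According to the paper, the same heifers supplied both groups, in separate collections. For IVM, the heifers received GnRH 4 days before aspiration. Immature cumulus-oocyte complexes were then aspirated from follicles of at most 8 mm and cultured for 22 h. For IVO, the heifers received 180 mg of FSH over 4 days, and follicles of at least 8 mm were emptied 24 h after the GnRH injection that induced the LH surge. Only complexes with visible cumulus expansion were kept as IVO, so the groups also differed in hormonal stimulation, follicle size and selection. In both groups, denuded oocytes with a polar body were lysed singly, and their polyadenylated mRNA was captured on beads and sequenced as 1 library per oocyte.

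The deposited values cover 7022 genes and are scores, scaled by the authors to the same 75th percentile (61) in each library and rounded. A score is thus a level relative to the other genes of the same oocyte, and a total amount of mRNA per oocyte cannot be read from it. The genes are listed by number, from 2 to 9910, and the files do not pair these numbers with names. Markers of oocytes and of cumulus cells could therefore not be looked up, and no gene group could be formed. No label names the heifer of an oocyte. Each group was accordingly treated as 1 sample, SDs over oocytes are a description, and the groups were not tested against each other. Library numbers of IVM and IVO oocytes do not interleave, so a difference that follows the order of libraries cannot be told apart from a difference between the groups.

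Several libraries stood apart before any comparison. The number of genes with a value above 0 was between 2924 and 5333 in IVM oocytes, with a median of 4771.5, and between 2032 and 5559 in IVO oocytes, with a median of 4500. IVM libraries 4 and 14 had 3045 and 2924 such genes, and IVO libraries 29 and 31 had 2048 and 2032, against at least 3561 in the other IVM and 3879 in the other IVO oocytes. These pairs of libraries differed in depth. In 7 IVM and 9 IVO libraries, at least 99% of the distinct values were whole multiples of a single step within rounding, and this step was taken as 1 read. In libraries 29 and 31 a single read was worth a score of 61.2, and the listed genes held 19776 and 17217 reads. IVM libraries 4 and 14 held 479249 and 335927 reads, and library 14 had the fewest reads of all IVM oocytes. Library 17, with 364180 reads, nevertheless had 4145 genes above 0, and library 16, with 498991 reads, had 3816. Libraries 29 and 31 were thus far shallower than libraries 4 and 14.

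At equal depth the detection of genes can be compared directly, but only in the 16 libraries whose reads were recovered. When the expected number of genes with at least 1 read was computed at 17217 reads, the 7 IVM libraries had between 2049 and 2621 genes (median 2252) and the 9 IVO libraries between 1991 and 2775 (median 2491). Libraries 29 and 31 had 1991 and 2032 genes at this depth, and library 14 had 2049, the 3 lowest values of the 16 libraries. At 138954 reads, which libraries 29 and 31 did not reach, the 7 IVM libraries had a median of 3460 genes and the 7 IVO libraries a median of 3976. With all their reads, the same 7 IVM and 9 IVO libraries had medians of 3816 and 4024 genes. The 7 IVO libraries without 29 and 31 had a median of 4160 with all their reads. In these libraries the IVM median was thus lower with all reads as well as at equal depth, and the cause was not tested. The ranges overlapped at both depths. In the remaining 9 IVM and 10 IVO libraries 1 read was worth about 1 score or less, so that their reads could not be recovered, and they are not part of these medians.

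Library 18 also needs a remark, because its title says in vivo whereas its library name says in vitro. It was taken as IVM by its name. With the genes chosen without it, its median Spearman's rho was 0.732 with the IVM oocytes and 0.718 with the IVO oocytes, and 3 of its 5 closest oocytes were IVM. These values differ by little, so they do not settle the label. By library name, the IVM and IVO RNA libraries of the series were as many as the mature oocytes the study reports. By title they were not. The counts of collected oocytes thus go with the library name. The counts of analysed oocytes do not decide. Among libraries with values, the IVM count of the study was matched by name and its IVO count by title.

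The abundant transcripts were largely shared between the groups. Of the 100 genes with the highest mean in each group, 87 were the same genes, and these 100 genes held 34.1% of the summed mean in IVM and 32.9% in IVO. The 10 highest genes of an oocyte held a median of 9.81% of its summed values in IVM and 9.94% in IVO. A core of 1216 genes had a value above 0 in all 35 oocytes, and 193 genes were at 0 in all of them.

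The median pair of oocytes was about as alike within a group as between the groups, when all genes with a level of at least 10 were pooled. The level of a gene is here the mean of its IVM mean and its IVO mean, and 3601 of 7022 genes (51.3%) reached 10. Over these genes, the median Spearman's rho between oocytes was 0.787 for 120 pairs within IVM, 0.789 for 171 pairs within IVO and 0.787 for 304 pairs between the groups. Single pairs spanned 0.605 to 0.933 within IVM, 0.596 to 0.934 within IVO and 0.575 to 0.936 between the groups. The range among pairs of the same group was therefore far wider than the difference between the medians. Without libraries 4, 14, 29 and 31 the medians were 0.824, 0.806 and 0.809, so that IVM pairs were then slightly more alike than the others. Pearson's r of log2(value + 1) was lower throughout, with medians of 0.740, 0.732 and 0.734. Pairs share oocytes and genes are not independent replicates, so these medians have no error of their own.

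The correlation of an oocyte with its group followed how many genes were detected in it. The median rho of an oocyte with the others of its group was 0.840 in IVM (range 0.642 to 0.881) and 0.818 in IVO (range 0.645 to 0.869). Library 4 was the lowest of IVM and library 29 the lowest of IVO. Across the 16 IVM oocytes, Pearson's r between this median rho and the number of genes above 0 was 0.965, and Spearman's rho was 0.870. Across the 19 IVO oocytes, the values were 0.839 and 0.805. When the 2 most distant oocytes by number of genes were left out, libraries 4 and 14 in IVM and 29 and 31 in IVO, Pearson's r was 0.935 and 0.746. Both measures come from the same libraries and share their depth and their zeros, and the oocytes may share heifers.

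**Figure D1:**
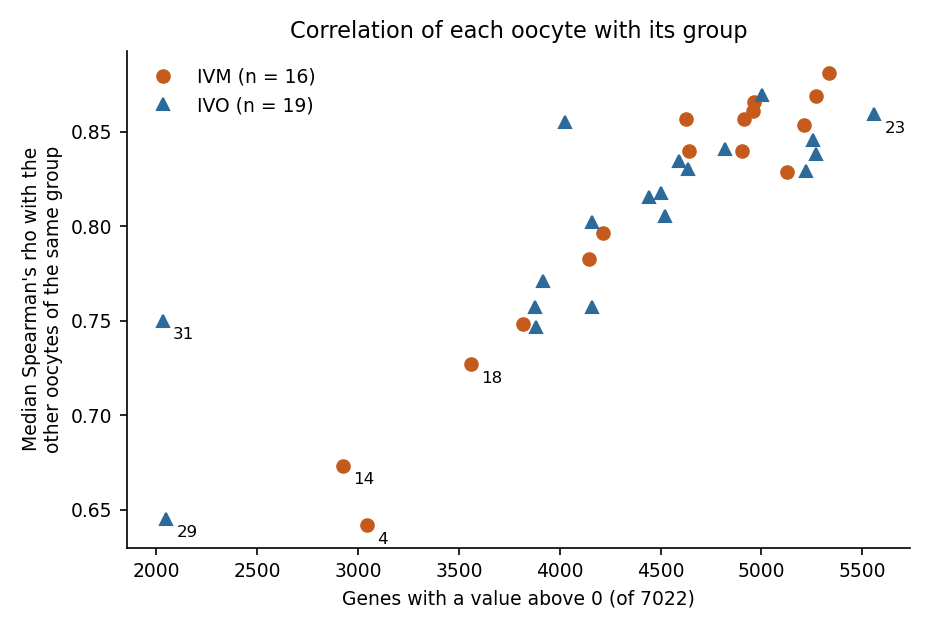
Median Spearman's rho of each oocyte with the other oocytes of its group (vertical axis) against its number of genes with a value above 0 (horizontal axis), over 3601 genes with a level of at least 10. Circles are 16 IVM and triangles 19 IVO oocytes, with some library numbers beside them. Libraries 4, 14 and 29 lie lowest, at 0.642, 0.673 and 0.645, whereas library 31, with the fewest genes, is at 0.750.

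At a given level of expression, pairs from the same group were slightly more alike than pairs from different groups. Among the 1059 genes with a level of 10 to 30, median rho was 0.100 within IVM, 0.111 within IVO and 0.0822 between the groups, so that low genes carried little common order. Among the 412 genes of 300 to 1000, it was 0.418, 0.424 and 0.364, and among the 128 genes of 1000 and over, 0.554, 0.632 and 0.500. Correlation between the groups was the lowest of the 3 medians in each of the 5 classes of level from 10 upwards. This order was also found in the 5 classes without libraries 4, 14, 29 and 31, although by a narrow margin at 30 to 100, where rho was 0.234 within IVO and 0.233 between the groups. All these medians lay below those over all levels pooled, where genes differ more in level, and the part of this spread in the pooled rho was not tested.

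Single oocytes were placed unevenly by these correlations. By its median rho, an oocyte was nearer to its own group in 14 of 16 IVM oocytes and 11 of 19 IVO oocytes over all genes with a level of at least 10. The median of this rho was 0.840 with the own and 0.813 with the other group in IVM, and 0.818 and 0.820 in IVO. Among the 128 genes of 1000 and over, 8 of 16 IVM and 18 of 19 IVO oocytes were nearer to their own group by median rho, and the single closest oocyte was of the same group for 11 of 16 IVM and 17 of 19 IVO oocytes. Over all genes with a level of at least 10, the single closest oocyte was of the same group for 9 of 16 IVM oocytes (56.2%, 95% exact binomial interval 29.9 to 80.2%) and for 16 of 19 IVO oocytes (84.2%, 60.4 to 96.6%). These intervals cover counting error only and take oocytes as independent, although several oocytes share the same closest oocyte. With 1 oocyte left out, the IVM share ranged from 40% (without library 8) to 75% (without library 23). The IVO share then ranged from 72.2 to 94.7%. A share expected from group size alone was not computed, and IVO was the larger group. Library 23, the IVO oocyte with the most genes above 0 (5559), was the closest oocyte of 9 others, and its own closest oocyte was IVM library 6, at a rho of 0.936, the highest of all pairs.

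The main axis of variation among the 35 oocytes did not separate IVM from IVO. In a principal component analysis of log2(value + 1) over the 3601 genes, the first component held 23.6% of the variance and had a Spearman's rho of 0.955 with the number of genes above 0. On it, IVM oocytes had a mean of 2.80 (SD 38.2) and IVO oocytes a mean of -2.36 (SD 49.6). The second and the third component held 10.1% and 8.78%, and on both the group means were closer than either SD.

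The variability of individual genes was higher in IVO when all oocytes were used, but similar once the libraries with few genes were left out. Over the 3601 genes, the SD of log2(value + 1) over oocytes had a median of 1.32 in IVM and 1.60 in IVO, and it was higher in IVO for 2080 genes (57.8%). This excess in IVO rested on shallow libraries. Without library 29 the share was 42.4%, without library 31 it was 46.1%, and without both it was 27.9%, with a median SD of 0.89 in IVO. When libraries 4 and 14 were left out as well, the median SD was 0.87 in IVM and 0.89 in IVO, and 50.5% of genes had the higher SD in IVO. Over all these genes the groups were thus alike without these 4 libraries, although not at every level.

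Variability fell with the level of a gene from 10 up to 1000. In all oocytes, the median SD in IVM and IVO was 1.38 and 1.47 for genes of 1 to 10, where many values are 0. It was 1.78 and 1.87 for genes of 10 to 30, 1.57 and 1.69 for genes of 30 to 100, and 0.81 and 0.83 for genes of 100 to 300. For genes of 300 to 1000 it was 0.61 in both groups. For genes of 1000 and over it was 0.61 in IVM and 0.58 in IVO. Without libraries 4, 14, 29 and 31, the fall was steeper at first. At 30 to 100 the median SD was then 0.94 in IVM and 0.95 in IVO. In this set, genes of 10 to 30 were more variable in IVO, with a median SD of 1.49 in IVM and 1.59 in IVO, and the SD was higher in IVO for 58.3% of them. In IVM, the median SD then rose from 0.55 at 300 to 1000 to 0.59 at 1000 and over. The 118 genes of 1000 and over were more variable in IVM, with a median SD of 0.59 against 0.51, and the SD was higher in IVO for 32.2% of them.

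**Figure D2:**
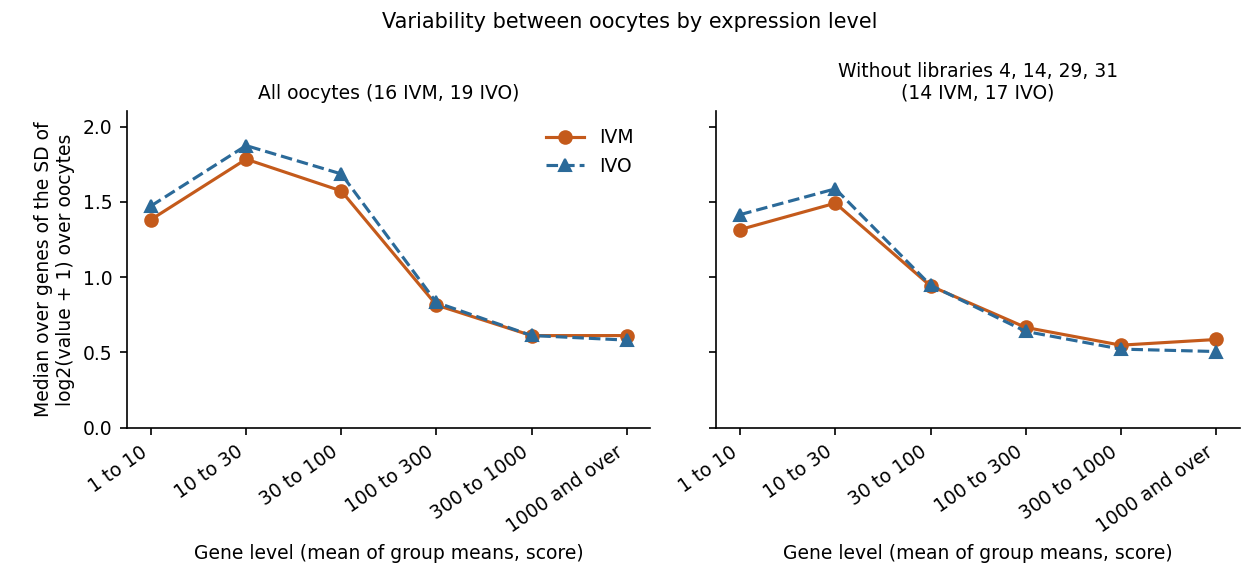
Median over genes of the SD of log2(value + 1) over oocytes (vertical axis), by class of gene level in scores (horizontal axis), for IVM (solid line, circles) and IVO (dashed line, triangles). In all oocytes (left) the SD at 30 to 100 is 1.57 and 1.69, and without libraries 4, 14, 29 and 31 (right) it is 0.94 and 0.95.

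Among the abundant genes, zeros were concentrated in few oocytes. Of the 1403 genes with a level of at least 100, 1265 (90.2%) had a value above 0 in all 16 IVM oocytes and 1149 (81.9%) in all 19 IVO oocytes. The median oocyte of either group had none of these genes at 0. Library 29 had 175 of them at 0, library 31 had 80, library 4 had 72, library 14 had 66 and library 18 had 11. A zero cannot be read as absence of the transcript in libraries 29 and 31, where a score of 100 stands for fewer than 2 reads. In libraries 4 and 14, with 479249 and 335927 reads, the source of the zeros was not tested.

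Genes that were variable in one group tended to be variable in the other, in part because both follow the level. The Spearman's rho of the SDs of IVM and IVO across the 3601 genes was 0.641. After each SD was set relative to the running median of the gene and the 50 genes on either side of it in level, it was 0.371. Of the 360 most variable genes of each group by this relative SD, 99 were shared (27.5% of each list), and of the 360 least variable, 94 were shared (26.1%). Unrelated lists of this size would be expected to share 360 in 3601 of their genes. Genes are not independent replicates, and zeros in the libraries named above enter both lists.

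No gene was detected in nearly all oocytes of one group and in few of the other. The rule asked for a value above 0 in at least 90% of the oocytes of one group and in at most 50% of the other, over all 7022 genes. It was met by 0 genes for IVM (0%) and 0 genes for IVO (0%). Detection was mostly common to both groups. A value above 0 in at least 90% of oocytes was found for 2643 genes in IVM and 2135 genes in IVO, of which 1975 were shared.

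Looser thresholds, chosen after the data were seen, gave differences that changed sides with the shallow libraries. With at most 75% in the other group, 52 of 7022 genes (0.74%) were nearly always detected in IVM only and 10 (0.14%) in IVO only. Without libraries 29 and 31 these counts were 9 and 88, and without libraries 4, 14, 29 and 31 they were 51 and 18. The 52 genes found in all oocytes had a median level of 16.0, and the highest of them a level of 59.2, so none was an abundant transcript. The share of oocytes with a value above 0 was over 25 percentage points higher in IVM for 201 genes (2.86%) and in IVO for 54 genes (0.77%). These counts became 120 and 153 without libraries 29 and 31, and 227 and 81 without libraries 4, 14, 29 and 31. Which group had more such genes therefore depended on the libraries included.

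Gene 2528 was the gene with the largest excess of detection in IVM and gene 6193 the one with the largest excess in IVO. Gene 2528 was above 0 in 13 of 16 IVM oocytes (81.2%, 95% exact binomial interval 54.4 to 96.0%) and in 5 of 19 IVO oocytes (26.3%, 9.15 to 51.2%). Its values were low, from 0 to 22 with a median of 3 in IVM and from 0 to 10 with a median of 0 in IVO, and the groups overlapped. Without libraries 4, 14, 29 and 31 it was above 0 in 13 of 14 IVM and 5 of 17 IVO oocytes, and it was then the only gene that met the rule above. Gene 6193 was above 0 in 2 of 16 IVM oocytes (12.5%, 1.55 to 38.3%) and in 11 of 19 IVO oocytes (57.9%, 33.5 to 79.7%), with a highest value of 2 in IVM and 5 in IVO. The intervals cover counting error only and take oocytes as independent, although the labels do not name their heifers. They are no test of the groups. Both genes were picked for this difference as extremes of 7022 genes, and few reads stand behind scores as low as these.

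The mean expression of most genes differed little between IVM and IVO. The difference of a gene is the log2 of (mean IVM + 1)/(mean IVO + 1), so that positive values mean higher in IVM, and it understates changes of low genes. Over the 3601 genes with a level of at least 10, it was 0.00037 at the median, -0.77 at the 5th percentile and 0.85 at the 95th percentile, and its absolute value had a median of 0.31. More than 2-fold higher in IVM were 99 genes (2.75%), and more than 2-fold lower were 83 genes (2.3%). The 2 directions were thus nearly balanced, and other choices changed that balance to either side. When each oocyte was rescaled to the same sum of values, the median difference was -0.10, and 53 genes were over 2-fold higher and 95 lower. With the difference of mean log2 values, 194 genes were over 2-fold higher and 98 lower.

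For no gene did the oocytes of the groups separate fully. The lowest IVM value lay above the highest IVO value for 0 of 3601 genes (0%), and the lowest IVO value above the highest IVM value for 0 genes (0%). When the difference of the mean log2 values was set against the SD over oocytes, it exceeded 1 pooled SD for 61 genes higher in IVM and 51 genes lower in IVM, 3.11% of the 3601 genes. The spread among oocytes of a group was thus larger than the difference between the groups for nearly all genes.

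Many of the differences past 2-fold rested on the oocytes with few genes. Of the 99 genes over 2-fold higher in IVM, 56 (56.6%) had their highest IVM value in library 4 or 14, against 31.5% of all 3601 genes. Of the 83 genes over 2-fold lower in IVM, 60 (72.3%) had their highest IVO value in library 29 or 31, against 43.0% of all genes. In 20 of the 182 genes, a single oocyte held over 50% of the sum of the higher group, against 44 of all 3601 genes. Without libraries 4, 14, 29 and 31, 73 genes were over 2-fold higher and 47 lower in IVM. Of the genes first found, 48 of 99 and 34 of 83 were still past 2-fold in the same direction. Library 29 alone mattered most for the lower genes, which numbered 49 without it.

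The size of the differences depended strongly on the level. Past 2-fold in either direction were 19.7% of the 1724 genes with a level of 1 to 10, 10.7% of the 1059 genes of 10 to 30, 4.13% of the 1139 genes of 30 to 100 and 1.51% of the 863 genes of 100 to 300. The share was 0.728% for the 412 genes of 300 to 1000, and it rose again to 4.69% for the 128 genes of 1000 and over. The median absolute difference fell over the same classes from 0.50 to 0.24 and was 0.28 in the highest class. From a level of 10 upwards, low genes also had a larger SD over oocytes, and the part of this SD in their differences was not tested.

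**Figure D3:**
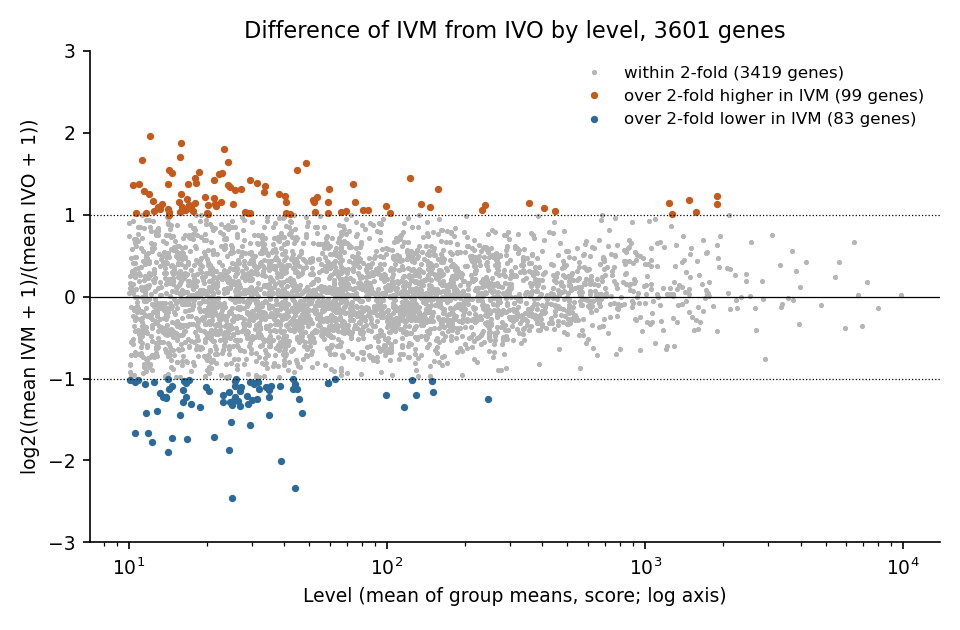
Difference of IVM from IVO on the log2 scale (vertical axis) against gene level in scores on a log axis (horizontal axis), for 3601 genes with a level of at least 10. Coloured points are the 99 genes over 2-fold higher and the 83 genes over 2-fold lower in IVM, dotted lines mark 2-fold, and above a level of 300 there are 9 genes beyond the upper line and 0 beyond the lower.

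The abundant transcripts past 2-fold were all higher in IVM. At a level of at least 300, 9 genes were over 2-fold higher in IVM and 0 were lower, 6 of them at 1000 and over. Their differences were between 1.01 and 1.23, and they ranked from 43 to 467 of 7022 genes by level. The values of these 9 genes, summed in each oocyte, were between 6802 and 25487 in IVM, with a median of 13695, and between 2550 and 12732 in IVO, with a median of 6010. The higher IVM median follows from the choice of these genes by their means in the same oocytes, and the groups overlapped all the same. Without libraries 29 and 31 the count was 18, without libraries 4, 14, 29 and 31 it was 17, and with equal sums it was 7, always with 0 lower genes in these settings. With library 18 taken as IVO, as in its title, the count was 2. Library 18 itself, with the genes chosen without it, had a sum of 18098, above the highest IVO oocyte (13650) and within the IVM range of 6988 to 27543.

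The abundant transcripts as a whole, these 9 genes included, were shifted slightly towards IVM under the authors' scaling. The median difference was -0.042 at 30 to 100, 0.053 at 300 to 1000 and 0.097 at 1000 and over, where 64.1% of genes were higher in IVM. When each oocyte was left out in turn, the last value lay between 0.061 (without library 18) and 0.16 (without library 31). The error computed from these leave-one-out values, in the group where it was larger, was 0.11. This exceeds the 0.097 itself, so the shift is within its error of 0. With classes formed anew, the median difference at 1000 and over was 0.23 without libraries 29 and 31 and 0.18 without libraries 4, 14, 29 and 31. After scaling all oocytes to an equal sum, the medians of the same genes were -0.14, -0.010 and 0.014, so each was lower, the sign changed at 300 to 1000 only, and the order over these levels was the same. The sum of values per oocyte, which the authors' scaling leaves free, had a median of 720834 in IVM and 662605 in IVO.

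Gene 3858 had the largest difference towards IVM and gene 5243 the largest towards IVO, among genes with a level of at least 30 whose group medians differed the same way. Gene 3858 had values from 0 to 192 in IVM with a median of 52.5, and from 0 to 70 in IVO with a median of 21. Its means were 73.6 (SD 53.8, n = 16) and 23.1 (SD 24.0, n = 19), a difference of 1.63. It was above 0 in 15 of 16 IVM and 12 of 19 IVO oocytes, with library 14 the IVM oocyte at 0, and the highest values were those of libraries 4 (192) and 18 (181). With library 18 taken as IVO, the difference was 1.08.

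Gene 5243 had values from 0 to 42 in IVM with a median of 10, and from 0 to 490 in IVO with a median of 30. Its means were 13.9 (SD 14.3, n = 16) and 74.3 (SD 129, n = 19), a difference of -2.33. The IVO mean rested on libraries 31 and 29, with values of 490 and 367, which are a few reads each at 61.2 scores per read. Without libraries 4, 14, 29 and 31 the means were 15.9 and 32.6, a difference of -0.99. The groups overlapped in both genes, and the SD of gene 5243 in IVO exceeded its mean.

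**Figure D4:**
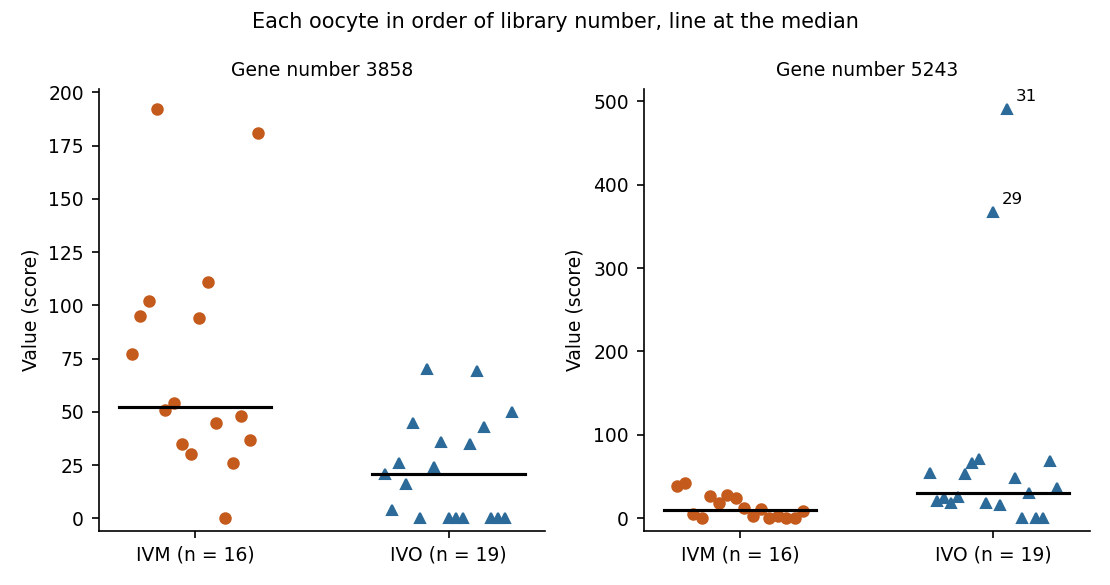
Values of gene 3858 (left) and gene 5243 (right) in scores (vertical axis) in each of 16 IVM (circles) and 19 IVO (triangles) oocytes, placed in order of library number within a group, with a line at the group median. In gene 5243 the 2 highest IVO values, 490 and 367, are libraries 31 and 29.

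The remaining IVM and IVO oocytes of the series, with library numbers from 39 to 88, took no part in choosing these genes. They comprised 16 IVM and 7 IVO oocytes with values. Among them, 48 of the 99 genes that were over 2-fold higher in IVM in libraries 1 to 38 had a positive difference (48.5%), and so did 46 of the 83 genes that were over 2-fold lower (55.4%). Over all 3601 genes, 52.2% had a positive difference there. The genes past 2-fold in libraries 1 to 38 were thus not displaced in the same direction in the other oocytes. For the 9 abundant genes, the differences there lay between -0.48 and 0.56, and 5 of them were negative.

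The named genes gave mixed values in the other oocytes. The difference of gene 3858 was -0.0014, with means of 45.8 in IVM and 45.9 in IVO. Gene 5243 had a difference of -1.45, with means of 32.7 and 90.9, the same direction as in libraries 1 to 38. Gene 2528 was above 0 in 11 of 16 IVM and 3 of 7 IVO oocytes, and gene 6193 in 9 of 16 and 2 of 7, which for gene 6193 is the opposite order. The means of gene 2528 were also in the opposite order, at 3.06 for IVM and 11.4 for IVO (difference -1.61, against 1.37 in libraries 1 to 38). The IVO oocytes numbered 7, with a median of 3779 genes above 0 in them, and no label names their heifers. A difference of the oocytes, of the animals or of the libraries therefore cannot be told apart.

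Under the authors' scaling, the median difference of abundant transcripts was also positive in the other oocytes. In classes of level taken from libraries 1 to 38, the median difference in libraries 39 to 88 was -0.031 at 30 to 100, 0.15 at 300 to 1000 and 0.27 at 1000 and over. With equal sums, these values were -0.13, 0.071 and 0.16, so that the sign at 300 to 1000 was not that of libraries 1 to 38. By the authors' scaling, 16 genes of 300 to 1000 and 4 of 1000 and over were over 2-fold lower in IVM in these libraries. Over 2-fold higher were 37 and 19 genes. With equal sums, 24 and 5 genes were lower and 29 and 17 higher. Within-group correlation there was 0.809 in IVM and 0.705 in IVO, and the median SD was 0.88 and 1.37. By the SD, IVO was thus the more variable group in those libraries. In libraries 1 to 38 this order depended on the libraries included, with 1.32 and 1.60 in all oocytes but 1.32 and 0.89 without libraries 29 and 31.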

How the data were processed

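Single MII oocytes were profiled by single-cell methylome and transcriptome sequencing, of which the RNA libraries were used here and the methylation table was not. Reads had been trimmed by the authors (Trim Galore 0.4.4) and aligned with HISAT2 2.1.0 to the UMD3.1.1 genome. Sources differ on the later steps, naming RSEM and edgeR in the sample records and SeqMonk in the methods of the study, so the program that made the scores is not known. Deposited values are scores, that is, whole numbers with the 75th percentile of every library at 61, and this scaling was read from the values. Libraries 5 and 7 (IVM) and 24 (IVO) held no finite values and were left out. The table has 0 columns of no sample, and 0 gene numbers matched a name in the annotation at hand. The study compared oocytes with DESeq2 and the cow as a factor, which could not be rebuilt without the cow of each oocyte.

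Scores were compared on the log2 scale with a pseudocount of 1. The unit called a read is inferred from the values alone. Whole reads were recovered where 99% of the distinct values of a library equalled a whole number of reads within the rounding of 0.5, and the expected number of genes at a lower depth was computed from them by sampling without replacement. The named genes are those with the largest difference each way (level of at least 30, group medians in the same direction) and with the largest difference in the share of oocytes above 0. The members and lists were chosen with earlier results of these data known. Alternatives concerned filters on level and on resolution, scaling, averaging, pseudocount, library 18 and each oocyte in turn. The code was tested on simulated data. Analyses ran in Python 3.11.15 with scipy 1.17.1, pandas 2.3.3 and numpy 2.4.6, and matplotlib 3.10.9 drew the figures.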

Additional observations from a re-analysis of the deposited data

How the results depend on the processing

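Of 203 values computed under an alternative for 29 results, 143 moved by no more than a set margin or, for counts, by at most 1.5 times. For correlations the margin was the SD over oocytes of their median rho. For other values it was an error computed by leaving out each oocyte in turn, in the group where it was larger. The 143 include values that could not move, such as Spearman's rho with a pseudocount of 10, which leaves ranks unchanged. The counts past 2-fold depended on the settings. They were 32 higher and 18 lower in IVM with a pseudocount of 10, 40 and 29 at a level of at least 30, and 308 and 289 with no filter. The latter 2 settings also change which genes are counted. The difference of mean logs gave 194 higher genes, a median difference of 0.051 and a median absolute difference of 0.37. The latter was 0.26 with a pseudocount of 10 and 0.29 at a level of at least 30. Equal sums gave 53 higher genes and a median difference of -0.10. The ratio of medians gave 1 gene of at least 300 that was over 2-fold lower.

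Without libraries 29 and 31, the median difference was 0.043, or 0.23 for genes of at least 1000, and 18 genes of at least 300 were over 2-fold higher. The median SD in IVO was 0.89, the ratio of the median SDs of IVO to IVM reversed to 0.675, and 27.9% of genes were more variable in IVO. Genes detected over 25 points more often numbered 120 in IVM and 153 in IVO. The first component held 20.8% of the variance, its rho with genes above 0 was 0.892, and the group means lay 0.405 SDs apart on it. Without libraries 4, 14, 29 and 31, chosen after seeing the data, 47 genes were lower and 17 genes of at least 300 higher, the median SDs were 0.87 and 0.89, 1 gene was detected in nearly all IVM oocytes only, and the first component held 17.5% with a rho of 0.871. With library 18 as IVO, 2 genes of at least 300 were higher, 1 gene was detected in nearly all IVM oocytes only and 28 genes over 25 points more often in IVO.

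At a level of at least 100, rho was 0.712 within IVM, 0.733 within IVO and 0.692 between the groups. The median SDs were 0.73 and 0.72, their ratio reversed to 0.986 with 49.8% of genes more variable in IVO, and the rho of the first component was 0.747. A pseudocount of 10 gave median SDs of 0.79 and 0.85. Pearson's r within IVO was 0.732. With detection set at a score of 10, 1 gene each was found in nearly all IVM or IVO oocytes only, and 132 and 144 genes differed by over 25 points. With at most 75% in the other group, 52 and 10 genes were found, and 9 and 88 without libraries 29 and 31, a combination chosen after seeing the data. The causes of these changes were not tested.

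When each oocyte was left out in turn, the genes over 2-fold lower numbered 49 (without library 29) to 95, those of at least 300 numbered 0 to 1, and the higher genes 84 to 117. The ratio of the median SDs was 0.990 (reversed, without library 29) to 1.49, and 42.4 to 67.3% of genes were more variable in IVO (reversed without library 29, at 42.4%, and without library 31, at 46.1%). Genes detected in nearly all IVM oocytes only numbered 0 to 1, and those detected over 25 points more often in IVO 36 to 84. No paired analysis was possible because no label pairs oocytes of the groups or names their heifers. Depth limits the values of libraries 29 and 31, in which no score under 61 can occur above 0.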

Other observations

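Oocytes of libraries 1 to 38 were also compared with the IVM and IVO oocytes of higher library numbers, over genes with a level of at least 10. The median rho was 0.783 between IVM oocytes of both ranges and 0.700 between IVO oocytes of both ranges. IVO oocytes of libraries 1 to 38 had a median rho of 0.795 with IVM oocytes of libraries 39 to 88, and IVM oocytes of libraries 1 to 38 one of 0.707 with IVO oocytes of libraries 39 to 88. IVO oocytes of the lower numbers were thus closer to IVM than to IVO oocytes of the higher numbers. The 7 IVO oocytes of libraries 39 to 88 had a median of 3779 genes above 0, against 4785.5 in the 16 IVM oocytes there, and the part of this difference in the correlations was not tested.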
